A study of Danio rerio with 6 samples.

Results

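The genes described here build and mineralize the bone of the regrowing zebrafish tail fin: the osteoblast transcription factors runx2a, runx2b and sp7, the matrix proteins bglap, spp1 and sparc, and the mineralization genes alpl, phex, entpd5a and panx3. They were taken by name, as a table entry equal to a listed symbol or to that symbol with a numeric suffix. Of the 10 listed genes, 9 had an entry among the 53709 of the table, each with a single entry, and all 9 passed the filter on low counts that left 25962 entries for testing. panx3, which encodes a pannexin channel, had no entry of its name and was left out.

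Messenger RNA was sequenced from regrowing tail fin tissue, the blastema, of male zebrafish (Danio rerio) at 4 days after amputation. The ZnO group was kept for that time in water with Pro-ZnO at 2 mg/L, zinc oxide nanoparticles made by green synthesis with a propolis extract, and the control group in distilled water (0 mg/L). Both groups had their tail fins cut and had 3 libraries each, and 5 fish per group in triplicate are stated in the labels, without saying whether a library holds 1 fish or several, so p-values measure only the spread between these libraries. No group with propolis or dissolved zinc alone is described in the labels, so the parts of the particle, its metal and its coating cannot be told apart, and neither strain nor age is stated.

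Fin rays are dermal bone laid down directly by osteoblasts, without a cartilage model. After amputation, mature osteoblasts near the cut lose part of their mature character, divide and move into the blastema, where they line the future rays and differentiate again. In this course the Runx2 factors commit cells to the lineage, Sp7 (osterix) carries them into the bone-forming state, and osteocalcin, the product of bglap, marks the mature cell.

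The libraries held 26624174 to 31712994 counts. Levels are given as CPM, counts per 1000000 counts of a library after TMM scaling for library composition, and 1 count was worth 0.0316 to 0.0383 CPM. Genes of the fin and blastema were present in all libraries, with the actinodin gene and1 at 4852 to 5751 CPM in ZnO and 3414 to 5237 in control libraries. In that list 10 of 12 tested entries had positive log2 fold changes (0 called by edgeR, 1 higher by DESeq2). Its sums were 7068 to 8164 CPM in ZnO and 4809 to 7341 in control libraries. Markers of other cells differed between the groups. All 13 tested erythrocyte entries had positive log2 fold changes (0 called by edgeR, 5 higher by DESeq2), and their summed level was 156 to 403 CPM in ZnO and 37.1 to 155 in control libraries. All 17 tested neutrophil entries were negative (3 lower by edgeR, 8 by DESeq2), with sums of 279 to 386 CPM in ZnO and 629 to 806 in control libraries. These entries came from 12 genes, among them the matrix metalloproteinase genes mmp9 and mmp13a. In several of these cell lists a gene can have more than 1 entry. Over all entries edgeR called 0.428% and DESeq2 4.81%. All 15 tested macrophage entries were negative too (0 called by edgeR or DESeq2), with a median log2 fold change of -0.46. In 3 of them every ZnO library lay below every control library, against 11.2% of all entries. Their sums were 2056 to 2759 CPM in ZnO and 2793 to 3651 in control libraries. In the pigment cell list 7 of 9 tested entries were positive (0 called by edgeR, 3 higher by DESeq2). Its sums were 71.5 to 141 CPM in ZnO and 51.5 to 71.1 in control libraries. Of the epidermal entries, 9 of 13 tested were positive, with a median log2 fold change of 0.28. Their sums were 59405 to 75856 CPM in ZnO and 44653 to 61491 in control libraries. In the osteoclast list 7 of 15 tested entries were positive (0 called by edgeR, 1 higher by DESeq2). Its sums were 640, 799 and 601 CPM in ZnO and 654, 597 and 693 in control libraries. The skeletal muscle entries summed to 2.68 to 7.52 CPM in ZnO and 5.57 to 7.29 in control libraries, with tnni2a.4 and pvalb1 at 0 in every library. In the cartilage list 5 of 7 tested entries were positive, with sums of 265 to 386 CPM in ZnO and 176 to 268 in control libraries. Most of that sum was hapln1a, a hyaluronan link protein gene, at 219 to 331 CPM in ZnO and 127 to 217 in control libraries, while the defining collagen gene col2a1a was at or below 0.312 CPM in every library. The part of these shifts in the values below was not tested. In whole tissue, more osteoblasts, more RNA per osteoblast and RNA from other cells cannot be told apart.

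The comparison asks how the bone program of the regrowing fin stands in fish kept with the nanoparticles. bglap had the largest difference of the members, 3.35-fold higher in ZnO libraries, followed by entpd5a at 1.61-fold and by spp1 and alpl at 1.43-fold each. The transcription factors and sparc had smaller positive estimates, and phex stood at 0.997-fold. With edgeR (quasi-likelihood test, p-values adjusted by Benjamini-Hochberg over the whole table), 0 of 9 members passed the threshold of 0.05, against 0.428% of all entries. DESeq2 called 2 of 9, bglap and entpd5a, both higher, where it called 4.81% of all entries in either direction and 1.7% higher. limma-voom called 0, against 0.293% of all entries. At an unadjusted edgeR p under 0.05, 5 of 9 members were higher and 0 lower, against 7.72% higher and 8.2% lower of all entries. In 6 of 9 members every ZnO library lay above every control library, against 11.3% of all entries, and in 0 every ZnO library lay below, against 11.2%. The members' median log2 fold change was 0.33, beside 0.01 over all tested entries, and 8 of 9 estimates were positive, against 52% of all entries. These shares are a description and not a test, since the members were chosen with earlier results of these data known. Nor are the 9 members independent: Pearson r of log2 CPM over the 6 libraries was 0.98 for spp1 and alpl, though -0.01 for sp7 and spp1.

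**Figure D1:**
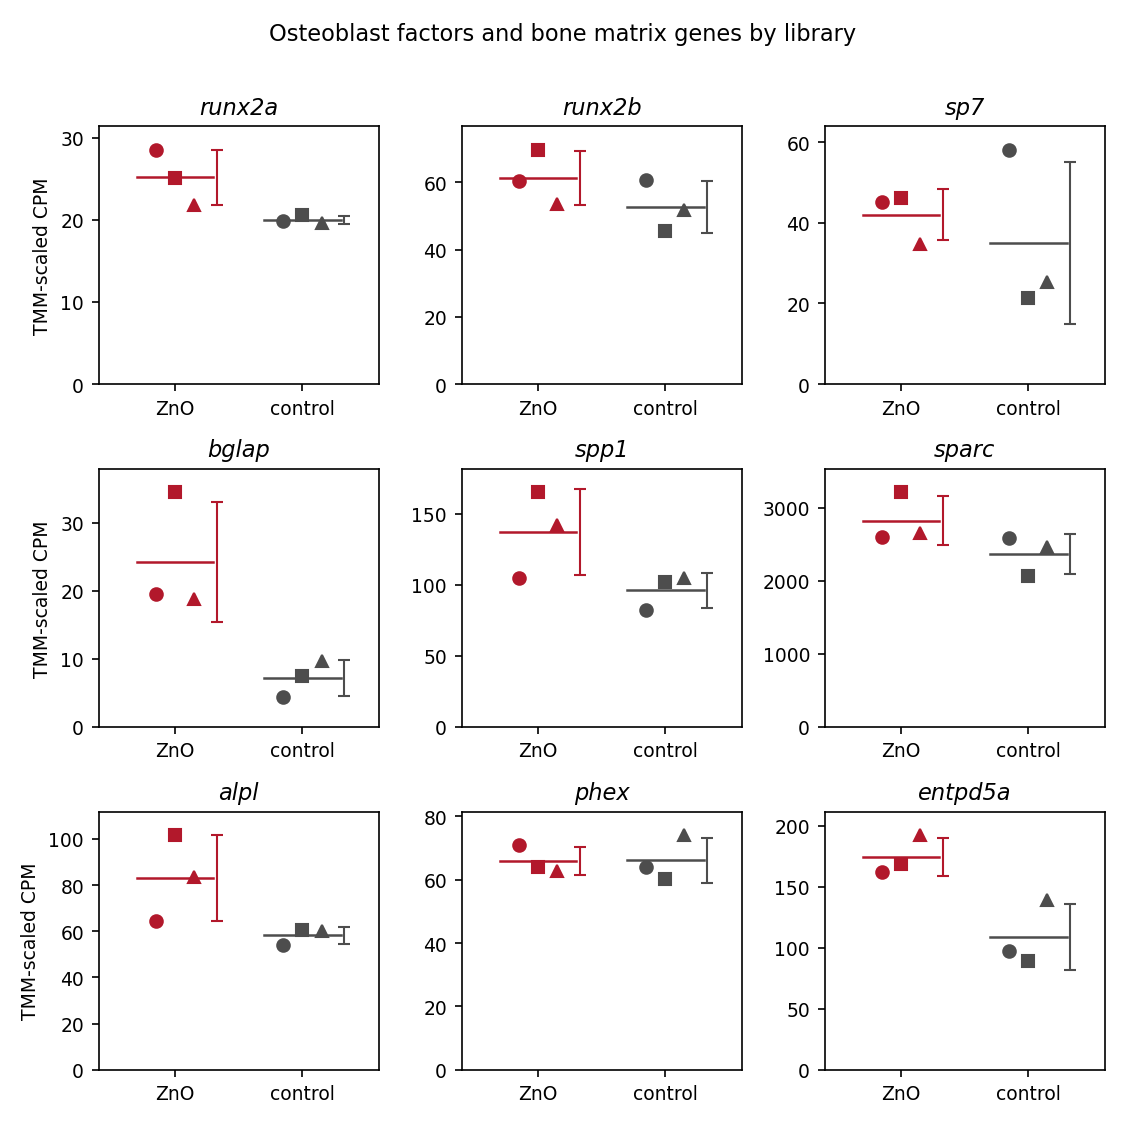
TMM-scaled CPM (y axis, from 0) of each of the 9 members in the 3 ZnO (red) and 3 control (grey) libraries. Circles, squares and triangles are replicates 1, 2 and 3, horizontal lines are means and bars are SD over 3 libraries. bglap lies at 18.9 to 34.5 CPM in ZnO and 4.47 to 9.71 in control libraries, while the runx2b, sp7 and phex groups overlap.

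Of the transcription factors, runx2a had groups apart and runx2b and sp7 had groups that overlapped. runx2a, a Runt-domain factor and one of the paired zebrafish copies of the mammalian Runx2 gene, stood at 28.5, 25.1 and 21.9 CPM in the ZnO libraries and at 19.8, 20.6 and 19.6 in the control libraries. The controls lay within about 1 CPM of each other and all ZnO libraries were above them. Its log2 fold change was 0.33 ± 0.13 (SE; 95% interval 0.04 to 0.62; edgeR adjusted p = 0.264). runx2b, the other copy, was at 60.5, 69.7 and 53.5 CPM in ZnO and 60.7, 45.6 and 51.6 in control libraries. The runx2b groups overlapped, since control 1 matched ZnO 1, and the log2 fold change was 0.22 ± 0.15 (SE; 95% interval -0.12 to 0.55; edgeR adjusted p = 0.517).

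sp7, the zinc finger factor that follows Runx2 in the lineage, had the widest spread of the members within a group. It was at 45.1, 46.2 and 34.8 CPM in the ZnO libraries and at 58.1, 21.4 and 25.4 CPM in the control libraries. Control 1 was above every ZnO library, and the other two controls were below every one. The log2 fold change was 0.26 ± 0.38 (SE; 95% interval -0.64 to 1.17; edgeR adjusted p = 0.787), so differences from 0.643-fold to 2.25-fold were compatible with these libraries. Without control 1 it was 0.84 (edgeR adjusted p = 0.134), without control 2 0.01 and without control 3 0.07. Control 1 also stood apart in the ratio of sp7 to runx2b counts, which was 0.745, 0.663 and 0.65 in ZnO and 0.957, 0.469 and 0.492 in control libraries.

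The matrix proteins held the member with the largest difference. bglap encodes osteocalcin, a small vitamin K-dependent protein whose carboxylated residues bind bone mineral. It was at 19.5, 34.5 and 18.9 CPM in the ZnO libraries and at 4.47, 7.5 and 9.71 CPM in the control libraries, from 562, 899 and 564 counts in ZnO and 136, 213 and 307 in control. Every ZnO library was above every control, with the lowest ZnO value nearly at the double of the highest control value. The log2 fold change was 1.75 ± 0.34 (SE; 95% interval 0.95 to 2.54), with 0.0834 as edgeR adjusted p and 1.35e-05 as DESeq2 adjusted p. With 1 library left out in turn it ran from 1.39 (without ZnO 2) to 2.01 (without control 3), and edgeR adjusted p from 0.0818 to 0.22. The erythrocyte sums beside these values were 156, 403 and 356 CPM in the ZnO libraries and 119, 37.1 and 155 in the control libraries. ZnO 2 was the highest library and control 3 the highest control for both, while the lowest was control 1 for bglap and control 2 for the erythrocyte sum. The pigment cell, epidermal, osteoclast and cartilage sums were also highest in ZnO 2. The part of any of these sums in the bglap values was not tested.

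spp1 encodes osteopontin, an acidic phosphoprotein of bone matrix that binds mineral and cell-surface integrins. It was at 105, 165 and 142 CPM in ZnO and 82, 102 and 104 in control libraries. The groups were apart by a narrow margin, ZnO 1 lying at the upper end of the controls (104.9 against 104.5 CPM in control 3), and the log2 fold change was 0.51 ± 0.18 (SE; edgeR adjusted p = 0.225). sparc, or osteonectin, a collagen-binding matrix protein, was at 2606, 3212 and 2661 CPM in ZnO and 2585, 2063 and 2468 in control libraries. Here too the groups were apart only narrowly, and the log2 fold change was 0.25 ± 0.15 (SE; 95% interval -0.09 to 0.60; edgeR adjusted p = 0.458).

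Of the mineralization enzymes, entpd5a and alpl had groups apart and phex had groups that overlapped. entpd5a, an ectonucleoside hydrolase required for bone mineralization in zebrafish, was at 162, 169 and 192 CPM in the ZnO libraries and at 97.1, 89.4 and 139 in the control libraries. All ZnO libraries were above all controls, control 3 being the nearest. Its log2 fold change was 0.68 ± 0.18 (SE; 95% interval 0.28 to 1.09), with 0.134 as edgeR adjusted p and 0.0195 as DESeq2 adjusted p, and it ran from 0.56 (without control 2) to 0.89 (without control 3) with 1 library left out. alpl, the tissue-nonspecific alkaline phosphatase, removes pyrophosphate, an inhibitor of mineral growth. It was at 64.2, 102 and 83.4 CPM in ZnO and 53.8, 60.5 and 60.2 in control libraries, with ZnO 1 close to the controls (log2 fold change 0.51 ± 0.17, SE; edgeR adjusted p = 0.196).

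phex, a membrane endopeptidase whose loss in humans causes X-linked hypophosphatemia, was at 70.9, 64.1 and 62.8 CPM in ZnO and 63.9, 60.3 and 74.1 in control libraries. The groups overlapped in full, and the highest and lowest of the 6 libraries were both controls. The log2 fold change was 0.00 ± 0.12 (SE; edgeR adjusted p = 0.992), and its 95% interval of -0.27 to 0.27 leaves room for differences from 0.827-fold to 1.2-fold.

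**Figure D2:**
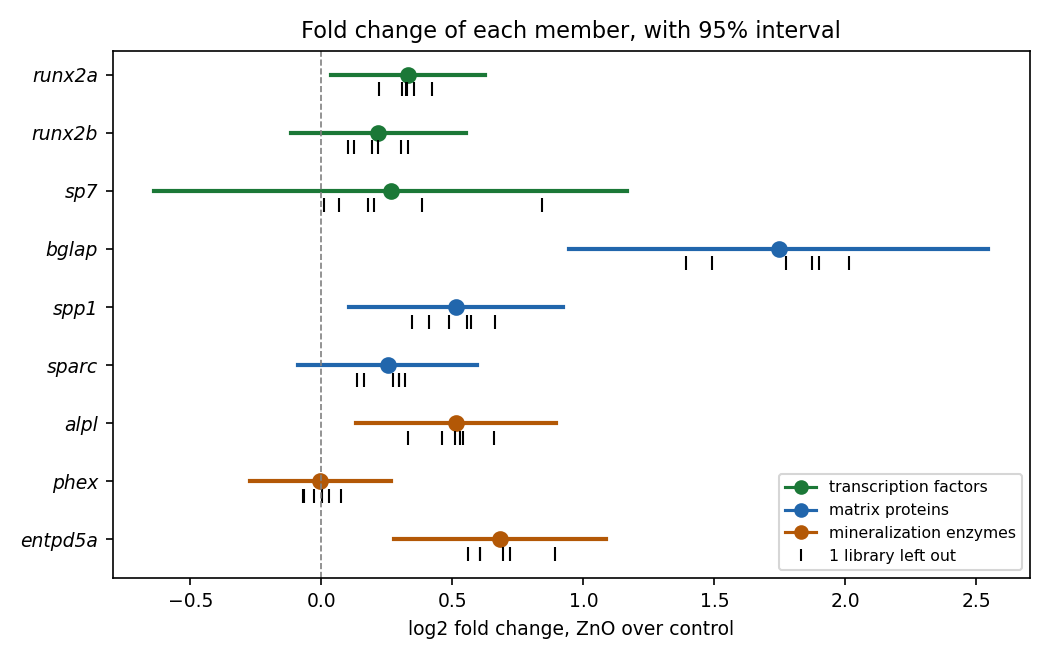
log2 fold change of each member, ZnO over control (x axis), with its 95% interval from the edgeR fit (line), coloured by role. Black ticks give the estimate with each library left out in turn. The bglap ticks run from 1.39 to 2.01, and the sp7 ticks from 0.01 to 0.84.

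Across libraries, the members did not all move as one. ZnO 2 was the highest library for 5 of the 9 members (runx2b, bglap, spp1, sparc and alpl), and control 2 the lowest for 5 (runx2b, sp7, sparc, phex and entpd5a). spp1 and alpl ordered the ZnO libraries alike, ZnO 2 first and ZnO 1 last, with control 1 the lowest of all. runx2b, sp7 and sparc had control 1 as their highest control, whereas bglap, spp1 and alpl had it as their lowest library. ZnO 2 was also the library with the highest erythrocyte, pigment cell, epidermal, osteoclast and cartilage sums and the lowest neutrophil sum. Control 2 had the lowest fin and blastema, erythrocyte and pigment cell sums and the highest neutrophil sum. The part of these differences in the bone values was not tested. Without ZnO 2 the log2 fold change of runx2b was 0.10 (0.22 with it), of sparc 0.14 (0.25), of alpl 0.33 (0.51), of spp1 0.35 (0.51) and of bglap 1.39 (1.75). That of runx2a was 0.32 (0.33) and of entpd5a 0.69 (0.68). Control libraries also moved single estimates by over 1.5 times: runx2b was at 0.33 without control 1 and 0.12 without control 2, and sparc at 0.16 without control 2. For runx2a it was ZnO 1, at 0.22 without that library.

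**Figure D3:**
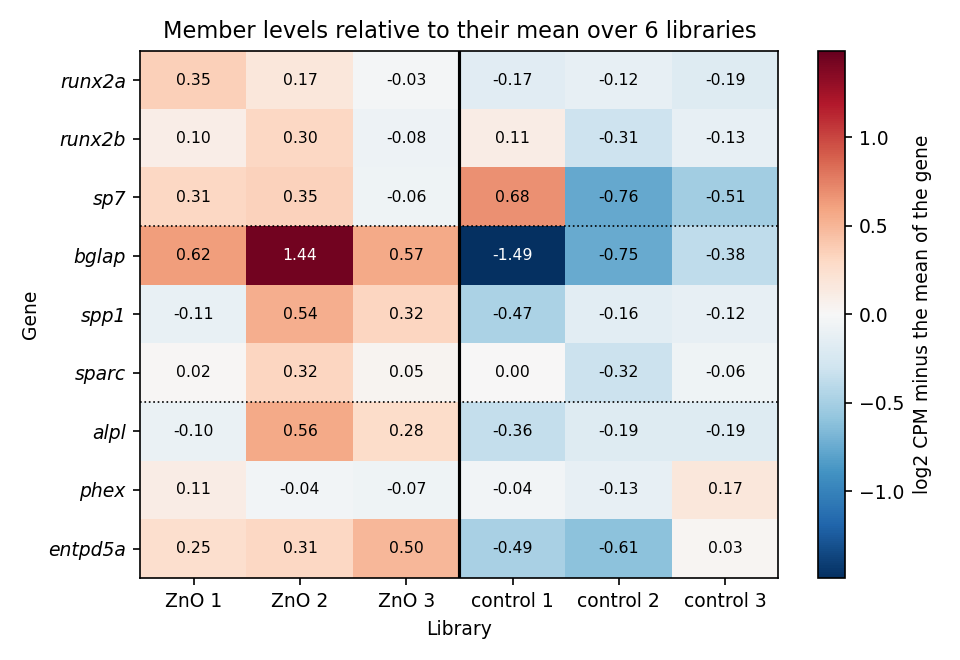
log2 CPM of each member minus its mean over the 6 libraries (colour and printed value), ZnO libraries on the left and control libraries on the right, with dotted lines between roles. bglap spans 1.44 in ZnO 2 to -1.49 in control 1, and sp7 has its highest value, 0.68, in control 1.

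The ratio of bglap to an earlier lineage gene within the same library describes how much of the mature marker accompanied the factors. The pairs were chosen after the counts had been seen. Each such ratio contains the bglap counts, so it is not separate from the bglap difference given above. The counts of bglap were 0.432, 0.746 and 0.541 of sp7 counts in the ZnO libraries, and 0.0769, 0.35 and 0.382 in the control libraries. Against runx2b they were 0.322, 0.494 and 0.352 in ZnO and 0.0735, 0.164 and 0.188 in control libraries. Neither ratio overlapped between the groups, and each had an exact 2-sided permutation p = 0.1, the smallest that 3 libraries against 3 allow (0.4 after adjustment over the 8 ratios computed). The ratios of runx2a to runx2b, at 0.472, 0.36 and 0.408 in ZnO and 0.327, 0.451 and 0.379 in control libraries, overlapped. So did those of entpd5a to alpl, at 2.53, 1.66 and 2.3 in ZnO and 1.8, 1.48 and 2.31 in control libraries. The ratios of phex to alpl overlapped as well, at 1.1, 0.631 and 0.752 in ZnO and 1.19, 0.997 and 1.23 in control libraries (exact permutation p = 0.2). Counts are not corrected for transcript length, so a ratio can be compared between libraries but not read as a ratio of molecules.

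Osteocalcin belongs to the family of osteocalcin and matrix Gla protein, and other genes of that family were set beside it. bglapl, the osteocalcin-like gene, was at 18.8, 44 and 18.6 CPM in ZnO and 10.6, 10.4 and 11.7 in control libraries. All ZnO libraries were above all controls, and ZnO 2 was at more than the double of the others. The log2 fold change was 1.32 ± 0.34 (SE), with 0.151 as edgeR adjusted p and 0.00254 as DESeq2 adjusted p, and 0.77 without ZnO 2. mgp, matrix Gla protein, known in mammals as an inhibitor of calcification, was at 6.8, 26.1 and 8.92 CPM in ZnO and 3.88, 4.68 and 8.73 in control libraries. ZnO 2 again stood out, and ZnO 1 lay below control 3 (log2 fold change 1.27 ± 0.58, SE; edgeR adjusted p = 0.36; 0.43 without ZnO 2). mgp was picked for this comparison after its values had been seen. The counts of bglap relative to bglapl were 1.04, 0.782 and 1.01 in ZnO and 0.42, 0.724 and 0.832 in control libraries.

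**Figure D4:**
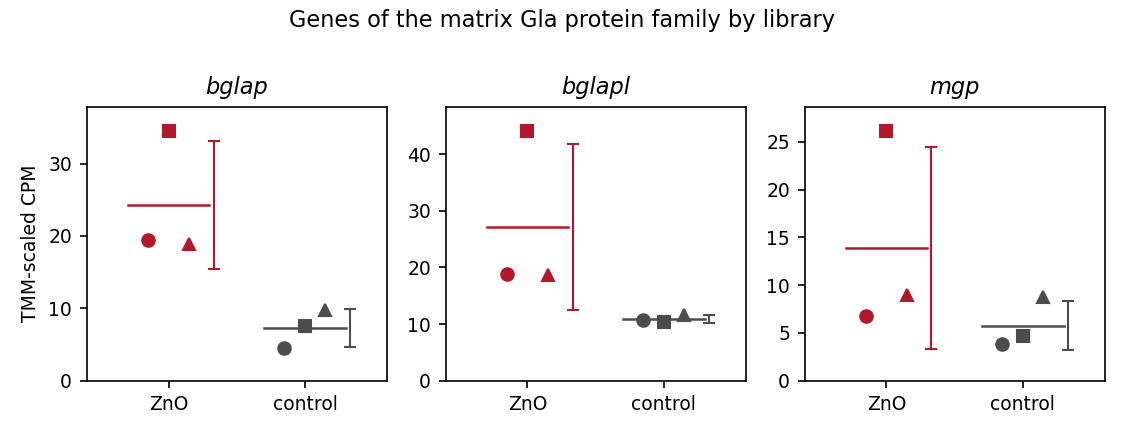
TMM-scaled CPM (y axis, from 0) of bglap, bglapl and mgp in the 3 ZnO (red) and 3 control (grey) libraries. Circles, squares and triangles are replicates 1, 2 and 3, lines are means and bars SD. ZnO 2 (square) is the highest library for each gene, at 34.5, 44 and 26.1 CPM.

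The wider bone program was read from 4 lists naming 71 genes, of transcription factors, matrix, mineral and phosphate handling, and signalling. An entry was present for 22 of 23 matrix genes, 17 of 19 signalling genes and every gene of the other lists. dmp1, pth1ra and pth1rb had no entry of their name. The lists gave 82 entries, of which 77 were tested. Some genes had several entries, so the entries are not separate genes. By edgeR 0 of 77 passed, with 8 higher and 2 lower at an unadjusted p under 0.05, where 7.72% and 8.2% of all entries were. DESeq2 called 2 higher, bglapl and scpp7, and 1 lower, col12a1a, which is 3.9% of the 77 and below its 4.81% over all entries. Their median log2 fold change stood at 0.11, and 48 of 77 estimates were positive, against 52% of all entries. That median depended on single libraries. It was 0.004 without control 2 and 0.029 without ZnO 2, and reached 0.17 without control 1.

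In the matrix list 10 of 22 tested entries were positive, with a median of -0.07. col1a1a, a chain of the main bone collagen, was at 8389, 7910 and 5140 CPM in ZnO and 9509, 4837 and 8594 in control libraries. Its groups overlapped in full (log2 fold change -0.10, edgeR adjusted p = 0.903; 0.09 without control 1), and it shares its name with a second entry, col1a1a_1, so its level is uncertain. col10a1a, a collagen of fin-ray osteoblasts, was at 7419, 7928 and 6476 CPM in ZnO and 6384, 4767 and 7435 in control libraries (0.23, edgeR adjusted p = 0.597). Its copy col10a1b was at -0.04, and the chains col1a1b, col1a2, col5a1 and col5a2a at -0.40, -0.32, -0.32 and -0.12, all with overlapping groups and none past the threshold. These collagens were chosen after their values had been seen. col12a1a, a fibril-associated collagen, was lower, at 1593, 1595 and 1090 CPM in ZnO and 3112, 1828 and 2720 in control libraries. Its groups did not overlap (log2 fold change -0.84 ± 0.23, SE), with 0.151 as edgeR adjusted p and 0.0113 as DESeq2 adjusted p.

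scpp7, a gene of the secretory calcium-binding phosphoprotein family, was at 75.3, 59.7 and 50.2 CPM in ZnO and 25.6, 13.4 and 46.1 in control libraries. Control 3 came close to ZnO 3, and the log2 fold change was 1.12 ± 0.43 (SE), with 0.283 as edgeR adjusted p and 0.0436 as DESeq2 adjusted p; scpp7 was named after its values had been seen. omd, or osteomodulin, a small leucine-rich proteoglycan of bone, was low throughout, at 4.26, 7.32 and 7.32 CPM in ZnO and 4.2, 2.64 and 3.57 in control libraries (log2 fold change 0.86, edgeR adjusted p = 0.185).

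In the transcription list 13 of 19 entries were positive, with a median of 0.05. These entries came from 16 genes, and the repeated entries of atf4b and of cbfb were all negative. twist1a, a basic helix-loop-helix factor that restrains Runx2 in mammals, was at 39.2, 58.5 and 47 CPM in ZnO and 39, 30.6 and 32.3 in control libraries, with ZnO 1 next to control 1 (0.51, edgeR adjusted p = 0.201). The homeobox genes dlx6a and dlx5a, which act in skeletal and fin development, had log2 fold changes of 0.47 and 0.27 (edgeR adjusted p = 0.3 and 0.39) with overlapping groups.

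In the signalling list 20 of 23 tested entries were positive, beside 52% over the whole table, with a median of 0.19. An unadjusted p under 0.05 was found for 2, both higher, beside 7.72% higher over the whole table. Several genes of this list had more than 1 entry, so the count is not one of separate genes. The list's sums were 399, 401 and 390 CPM in ZnO and 397, 274 and 343 in control libraries. Control 1 thus lay within the ZnO range, and control 2 was the lowest library. sost_1, an entry of the sclerostin gene, whose product inhibits Wnt signalling and bone formation in mammals, was at 12.6, 12 and 13.6 CPM in ZnO and 10.6, 7.54 and 7.15 in control libraries. Its groups did not overlap (0.59 ± 0.18, SE; edgeR adjusted p = 0.175). The suffix marks a repeated entry of the symbol, so the level of the whole gene is uncertain. bmp4, a bone morphogenetic protein, and vdra, a vitamin D receptor, had log2 fold changes of 0.40 and 0.47 (edgeR adjusted p = 0.283 and 0.315).

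In the mineral and phosphate list 5 of 13 entries were positive, with a median of -0.10, and 0 had an unadjusted p under 0.05. tnfrsf11b, or osteoprotegerin, the decoy receptor that limits osteoclast formation, was at 11.9, 6.4 and 9.02 CPM in ZnO and 14.5, 13 and 10.4 in control libraries, with overlapping groups (-0.47, edgeR adjusted p = 0.372). The phosphate transporter slc20a2 and the pyrophosphate exporter ankha had log2 fold changes of 0.28 and -0.31 (edgeR adjusted p = 0.386 and 0.481).

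**Figure D5:**
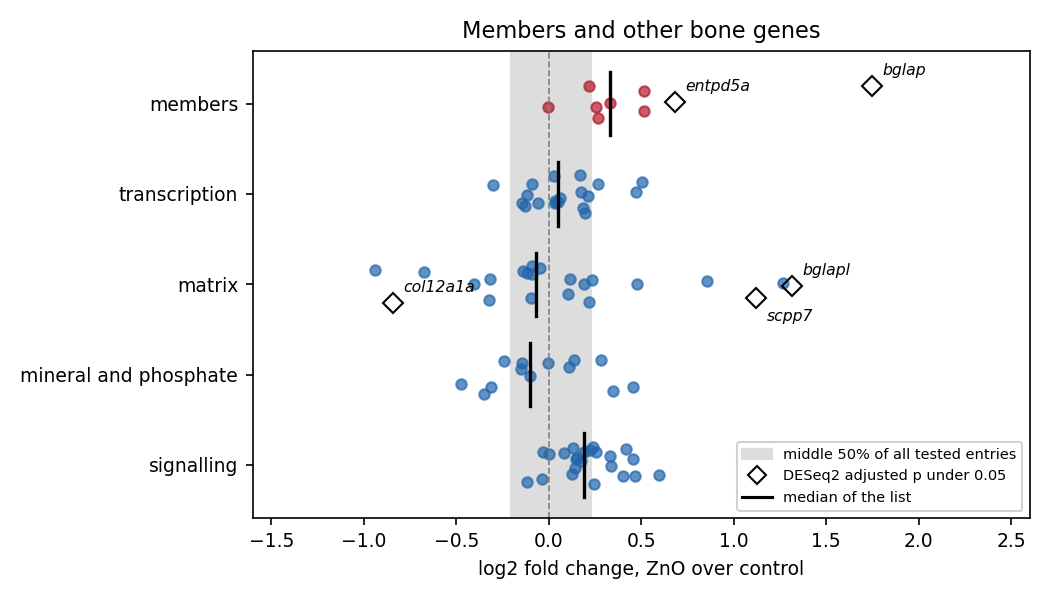
log2 fold change, ZnO over control (x axis), of the 9 members (top, red) and of the tested entries of the 4 bone lists (blue), each point an entry, black lines the medians and the grey band the middle 50% of all 25962 tested entries. Open diamonds had a DESeq2 adjusted p under 0.05, and none passed by edgeR. bglap at 1.75 and bglapl at 1.32 lie farthest to the right.

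Relatives of the members were read in the same fit, with 26 tested entries, of which 13 were positive (median 0.01). By edgeR 0 passed, with 3 higher and 2 lower at an unadjusted p under 0.05, and DESeq2 called 2, both lower. Of all entries, 7.72% were higher and 8.2% lower at an unadjusted p, and DESeq2 called 4.81%. alpi.1, an intestinal-type alkaline phosphatase gene, was at 184, 182 and 163 CPM in ZnO and 347, 236 and 241 in control libraries, below the controls in every ZnO library where alpl was above them. Its log2 fold change was -0.64 ± 0.17 (SE), with 0.135 as edgeR adjusted p and 0.0167 as DESeq2 adjusted p. entpd8, an ectonucleoside hydrolase related to entpd5a, was at 20.2, 6.63 and 18.3 CPM in ZnO and 27.8, 41 and 35.4 in control libraries, again without overlap (-1.20 ± 0.40, SE), with 0.228 as edgeR adjusted p and 0.0166 as DESeq2 adjusted p. The most abundant relatives of the runx2 genes, sparc, panx3, entpd5a and phex were runx3 (-0.11), smoc1 (0.10), panx1a (-0.19), entpd1 (-0.20) and ece1 (0.02). They had overlapping groups and edgeR adjusted p from 0.514 to 0.95.

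The 5 entries whose levels over the 6 libraries were most like the mean profile of the members, by Pearson r of log2 CPM, were mettl24 (0.998), twsg1a (0.996), kdm7ab (0.994), grk5l (0.992) and adrb2a (0.991). With 6 libraries and this many entries a high r is easily found, and the values are a description. Among them twsg1a, which encodes a secreted binding protein of bone morphogenetic proteins, was at 46.7, 59 and 45.7 CPM in ZnO and 34.3, 32 and 36.2 in control libraries, without overlap (log2 fold change 0.56, edgeR adjusted p = 0.105). The members' mean profile was itself higher in every ZnO library (0.16 to 0.44) than in every control library (-0.37 to -0.15). Groups apart and a positive estimate therefore follow from how twsg1a was picked and are no separate result.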

How the data were processed

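Poly(A) RNA was read from both ends by Illumina sequencing (NextSeq), per the protocols in the labels. The authors deposited whole-number counts for each gene entry without normalization. The submitters' processing notes name cutadapt, BWA, HTSeq, DESeq2 and the build GRCz11, and their settings, the annotation and the strand setting are not given in any source used here, so overlapping entries are less certain. All 6 columns were matched to samples by library name, and 0 other columns of sample values were present.

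A filter (edgeR's filterByExpr, minimum count 10) kept 25962 of 53709 entries and 99.9% of counts. Scaling was by TMM, and ZnO was tested against control with edgeR's quasi-likelihood fit (robust, group only), with Benjamini-Hochberg adjustment over all tested entries. SE is the log2 fold change divided by the root of F, and 95% intervals use the fit's degrees of freedom. Log2 CPM used a prior count of 2. Named are all members, from each bone list the 3 entries with the smallest p, and relatives called by DESeq2. The most abundant relative was named for the runx2 genes, sparc, alpl, panx3, entpd5a and phex, and none was chosen for sp7, bglap or spp1. Also named are the 5 entries of at least 10 CPM most like the members' mean profile, and entries said to be chosen later. Members and lists were chosen with earlier results of these data known. Alternatives were DESeq2, limma-voom, other scalings and filters, summed entries, the replicate number as a block and each library left out. The edgeR script was tested on simulated counts. No 2 libraries of a group agreed within counting noise. Sequences of the members were not used here. The tools were edgeR 4.0.16, DESeq2 1.42.0 and limma 3.58.1 in R 4.3.3, and matplotlib 3.10.9, numpy 2.4.6 and pandas 2.3.3 in Python 3.11.15.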

Additional observations from a re-analysis of the deposited data

How the results depend on the processing

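Over 15 alternatives each, 128 of the members' log2 fold changes kept their direction and their side of the threshold, 2 (bglap and entpd5a by DESeq2) newly passed it, and 5, all of phex, changed sign near 0: 0.0052 with upper quartile scaling, 0.0027 with library totals only, and 0.0024, 0.030 and 0.076 without ZnO 2, ZnO 3 and control 3, within a range of -0.071 to 0.076 over the libraries left out. Member entries called numbered 2 by DESeq2 and 0 under the other alternatives, with 1 library left out 0 to 0. Bone list entries called numbered 3 by DESeq2 and 0 otherwise. Over all entries 111 were called, against 1199 by DESeq2, 405 with no filter on low counts, 67 with a minimum count of 50, 32 with the replicate block and 12 to 369 with 1 library left out. The correlations of same-numbered libraries' deviations from their group means were 0.01, -0.05 and 0.08. With 3 libraries per group, these cannot exclude a pairing by replicate number. The replicate block changed no member's call. With it the SE was smaller for bglap (0.27 against 0.34), spp1 (0.12 against 0.18), entpd5a (0.13 against 0.18), alpl (0.13 against 0.17) and sp7 (0.28 against 0.38). It was slightly larger for runx2a, runx2b, phex and sparc (0.17 against 0.15). With 1 library left out, smoc1 ran from -0.067 to 0.221, ece1 from -0.024 to 0.067 and col1a1a from -0.342 to 0.091 on the log2 scale. The cause of these differences between settings was not tested. In simulated counts for ZnO against control (25571 entries tested), recovery by edgeR was 16% at a 1.5-fold change, 60% at 2-fold and 98% at 4-fold. Changes were put only into entries above a set mean count. The spread of each entry followed the trend over expression level, without a spread of its own. Recovery could therefore be lower for genes with a wider spread between libraries, such as sp7. Smaller changes, such as the 1.26-fold of runx2a and the 1.19-fold of sparc, were not simulated.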
